A study of Mus musculus with 12 samples.

Results

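Neutrophil granule and maturation genes were followed through RNA-seq libraries of mouse brain and skull after photothrombosis (PT), in which light on a dye in the blood closes the vessels of a small area. The genes were chosen by name: Ngp, Ltf, Camp, Lcn2, S100a8, S100a9, Chil3, Retnlg, Fcnb and Csf3r. Of these 10 genes, 9 have a row among the 22317 genes of the count table, and the counts of Fcnb were not analysed here, only its promoter. The animals were male BALB/c mice of 8 weeks with no genetic change. There were 12 libraries in 4 groups of 3: the group SB2 is labelled as brain cortex on day 2 and the group SB4 as brain cortex on day 4 after injury of the skull, and the group BS2 is labelled as interparietal bone on day 2 and the group BS6 as interparietal bone on day 6 after injury of the brain. The study's uninjured controls and injured tissues were not analysed here, so no value below is a change against a control. Poly(A) RNA was sequenced from bulk tissue, and fewer neutrophils cannot be told apart from less RNA per neutrophil.

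Neutrophils mature in bone marrow, the skull's marrow included, and fill their granules in a set order. Primary granule genes such as Prtn3 are transcribed first, in promyelocytes. Specific and gelatinase granule genes follow in myelocytes and metamyelocytes under the transcription factor Cebpe, and receptors for chemokines and formyl peptides come last. Uninjured brain tissue holds hardly any neutrophils.

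The labels were first compared with tissue markers. The osteoblast and osteocyte markers, 6 of 8 of which are in the table, summed to 36587 to 41685 CPM (counts scaled to library size) in SB2 and 19097 to 79181 CPM in BS6, and to 8.59 to 19.3 CPM in SB4 and BS2. The 8 neuron markers summed to 63.8 to 136 CPM in SB2 and BS6 and to 10697 to 12045 CPM in SB4 and BS2. The libraries labelled SB2 therefore carried bone transcripts and the libraries labelled BS2 brain transcripts, against their labelled tissues. The labels were kept here, and whether titles or tissues were exchanged was not tested. The total count was 14126082 to 18972654 per library, so that 3 counts, the upper limit behind a gene with no reads, are 0.163 to 0.218 CPM. Such limits, and the intervals of ratios below, cover counting error only.

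Among the 9 genes, 3 lie together on chromosome 9 of GRCm38 (mm10): Camp at 109847379 to 109849617 on the minus strand, Ngp at 110419747 to 110423012 and Ltf at 111019271 to 111042767 on the plus strand. The gaps between them are 570 kb and 596 kb. S100a8 (chromosome 3, 90668978 to 90670035, plus strand) and S100a9 (90692632 to 90695721, minus strand) are 22.6 kb apart. The others are Chil3 on chromosome 3, Lcn2 on chromosome 2, Retnlg on chromosome 16 and Csf3r on chromosome 4.

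RefSeq promoters (GRCm38.p6, 250 bases before to 50 bases after the start, from the C57BL/6 reference rather than BALB/c) were found for all 10 genes and searched on both strands. The motif TTGCNNAA, letters like those bound by C/EBP factors, occurred in 6 of the 10 promoters (Ngp, Ltf, Lcn2, S100a9, Retnlg and Fcnb) and in 10.8% of all 32851 promoters of this length. The motif GAGGAAGT, letters like those bound by PU.1, occurred in 1 of the 10 (S100a8) and in 3.20% of all. The motifs share no letters in these windows. These are matches of letters only. Stretches upstream of Ngp (chr9:110419558-110419742, plus strand), Ltf (chr9:111019042-111019226, plus strand) and S100a9 (chr3:90695787-90695971, minus strand) are printed 5′ to 3′ because these genes share the first motif and were abundant in the libraries with bone transcripts. Capitals mark the match, which is on the reverse strand in Ltf.

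Ngp: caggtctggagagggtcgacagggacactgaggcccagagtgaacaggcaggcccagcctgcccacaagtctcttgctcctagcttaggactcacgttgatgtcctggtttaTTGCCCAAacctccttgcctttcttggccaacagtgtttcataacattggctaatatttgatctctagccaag
Ltf: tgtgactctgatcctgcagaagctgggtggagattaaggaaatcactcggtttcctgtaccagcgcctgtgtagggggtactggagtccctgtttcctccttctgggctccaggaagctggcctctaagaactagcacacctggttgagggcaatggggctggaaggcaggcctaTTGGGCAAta
S100a9: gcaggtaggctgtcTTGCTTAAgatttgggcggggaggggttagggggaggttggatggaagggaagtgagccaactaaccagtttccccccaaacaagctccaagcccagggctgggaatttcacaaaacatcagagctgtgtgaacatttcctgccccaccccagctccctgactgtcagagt

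The matched letters in Ngp begin 138 bases and those in Ltf 75 bases before the start, and read on the motif's strand both are TTGCCCAA. A further match in Ngp, on the reverse strand and 11 bases before the start, lies outside the printed stretch. These starts are those of RefSeq, whereas the gene coordinates given above are those of GENCODE. For Ngp and Ltf the RefSeq start lies inside the GENCODE coordinates, and so does this further match in Ngp. In S100a9 the letters are TTGCTTAA and begin 236 bases before the start.

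Ngp, a granule protein of the cathelin family, was at 299, 417 and 207 CPM in the libraries SB2-1, SB2-2 and SB2-3, and at 371, 5946 and 1017 CPM in BS6-1, BS6-2 and BS6-3. Its counts were 9, 2 and 8 in SB4 and 0, 2 and 0 in BS2. BS6-2 thus stood far above the other libraries with bone transcripts, BS6-1 lay within the range of SB2, and the libraries with brain transcripts held at most 9 reads.

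Ltf, which encodes the iron-binding lactoferrin, was at 209, 247 and 140 CPM in SB2 and at 246, 3286 and 556 CPM in BS6. The counts of Ltf were 5, 1 and 5 in SB4 and 0, 3 and 2 in BS2. The pattern was that of Ngp, with BS6-2 highest, then BS6-3, and BS6-1 within SB2.

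Camp, the gene of the antimicrobial peptide cathelicidin, was at 90.2, 124 and 70.5 CPM in SB2 and at 129, 1661 and 287 CPM in BS6. A single read of Camp was counted in SB4 and 1 in BS2. For Camp the BS6 libraries did not overlap with SB2, although BS6-1, at 128.6 CPM, was close to SB2-2, at 123.7 CPM.

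Lcn2 encodes lipocalin 2, a specific granule protein that binds bacterial siderophores and that reactive astrocytes can also make. It was at 99.8, 135 and 105 CPM in SB2 and at 97.4, 2259 and 263 CPM in BS6. In SB4 it was counted 38, 113 and 4 times (2.70, 6.14 and 0.223 CPM), and in BS2 0, 4 and 8 times. Among these genes Lcn2 ranged most widely within SB4, where SB4-1 and SB4-2 lay above SB4-3 and above all BS2 libraries.

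S100a8 and S100a9 encode the subunits of calprotectin, the most abundant cytosolic protein of neutrophils, which monocytes also make. S100a9 was at 369, 481 and 289 CPM in SB2 and at 423, 8061 and 909 CPM in BS6. S100a8 was at 171, 207 and 119 CPM in SB2 and at 178, 4480 and 469 CPM in BS6. Both genes had BS6-1 within SB2, BS6-3 above it and BS6-2 far above all others.

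In the libraries with brain transcripts S100a9 was counted 32, 53 and 21 times in SB4 and 8, 6 and 9 times in BS2. S100a8 was counted 13, 15 and 2 times in SB4 and 3, 3 and 7 times in BS2. The groups did not overlap for S100a9 and overlapped for S100a8.

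Chil3 encodes Ym1, a chitinase-like protein of immature neutrophils and of alternatively activated macrophages, and its reads could be shared with close paralogs. It was at 44.7, 39.4 and 27.4 CPM in SB2 and at 39.7, 795 and 94.5 CPM in BS6. No read of Chil3 was counted in BS2, and 0, 1 and 1 in SB4. Retnlg, a resistin-like gene of mature neutrophils with close paralogs, was at 23.1, 40.0 and 22.1 CPM in SB2 and at 61.0, 911 and 76.1 CPM in BS6. All BS6 libraries lay above all SB2 libraries for Retnlg and Camp, 2 of the 9 genes, as they did for 17.8% of all genes tested, a share near that of the 9. The counts of Retnlg were 6, 13 and 4 in SB4 and 1, 3 and 1 in BS2, which did not overlap.

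Csf3r encodes the receptor of granulocyte colony-stimulating factor (G-CSF), which drives neutrophil production. Monocytes and microglia also carry the receptor. Csf3r was at 99.8, 99.0 and 82.2 CPM in SB2 and at 96.2, 430 and 92.5 CPM in BS6. It alone of the 9 genes had at least 74 reads in every library with brain transcripts, at 9.72, 10.1 and 7.63 CPM in SB4 and 5.90, 4.74 and 5.96 CPM in BS2. BS6-1 and BS6-3 lay inside the range of SB2 for Csf3r, and only BS6-2 stood apart.

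**Figure D1:**
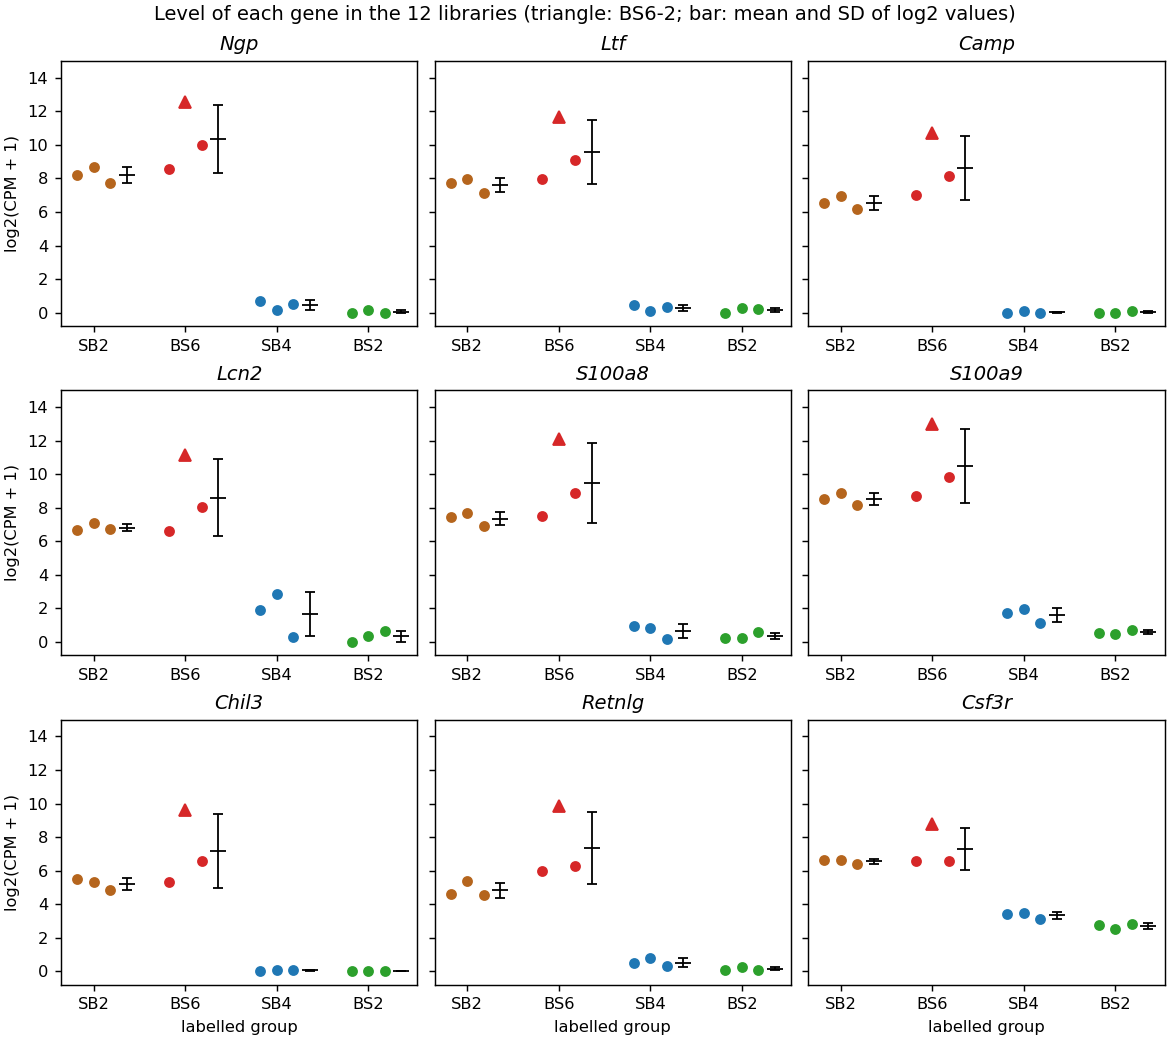
Level of each of the 9 genes as log2(CPM + 1) in the 12 libraries, by labelled group, with the mean and SD of the log2 values of each group beside its points and BS6-2 drawn as a triangle. BS6-2 is the highest library for every gene, and Csf3r, at 4.74 to 10.1 CPM in SB4 and BS2, is the gene that stays farthest from 0 there.

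As group means, Ngp was at 308 ± 105 CPM (SD, n = 3) in SB2 and 2444 ± 3049 CPM in BS6, which became 694 CPM without BS6-2. S100a9 was at 379 ± 96.5 CPM in SB2 and 3131 ± 4276 CPM in BS6, or 666 CPM without BS6-2. Retnlg was at 28.4 ± 10.1 CPM in SB2 and 349 ± 486 CPM in BS6, or 68.5 CPM without BS6-2. Csf3r was at 93.7 ± 9.94 CPM in SB2 and 206 ± 194 CPM in BS6, or 94.4 CPM without BS6-2. For every one of the 9 genes except Csf3r the SD in BS6 was larger than the mean. The order of the means was BS6, SB2, SB4, BS2 for 8 of the 9 genes, and for Camp, with a single read in each of SB4 and BS2, these last groups were the other way round. BS6 and SB2 overlapped for 7 of the 9 genes, and no gene of the 9 overlapped between SB2 and SB4 (43.1% of all genes tested lay below SB2 in every SB4 library). SB4 and BS2 overlapped for 6 of the 9, and the other 3 lay lower in every BS2 library, as did 10% of all genes tested. Of these 3, Retnlg was too low to be among the genes tested.

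The 9 genes took 2.96% of all counts in BS6-2. They took 0.164% in BS6-1, 0.357% in BS6-3, 0.109% to 0.185% in SB2, 0.000982% to 0.00202% in SB4 and 0.000598% to 0.000779% in BS2. Against the mean of BS6-1 and BS6-3, BS6-2 was 13.9-fold higher for S100a8, 13.3-fold for Retnlg, 12.5-fold for Lcn2, 12.1-fold for S100a9 and 11.9-fold for Chil3. It was 8.57-fold higher for Ngp, 8.20-fold for Ltf, 7.99-fold for Camp and 4.56-fold for Csf3r. The median of the 9 was 11.9-fold, beside 0.999-fold over all 10550 genes with a BS6 mean of at least 10 CPM, of which 0.313% were more than 10-fold and 1.19% more than 5-fold higher in BS6-2. These are ratios of a single library to 2 others and carry no test.

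Other genes of the neutrophil lineage were also high in BS6-2. Prtn3, the proteinase 3 gene and the only 1 of 6 primary granule genes in the table, was at 40.8, 1000.2 and 106 CPM in BS6-1, BS6-2 and BS6-3, which made BS6-2 13.6-fold higher than the mean of the others. The other specific and gelatinase granule genes had a median ratio of 8.65, with 15.3 for Cd177, a surface glycoprotein of neutrophils, 11.0 for Hp, the haptoglobin gene, and 4.93 for Anxa1, whereas Mmp9, a gelatinase gene that osteoclasts also express, was at 884, 898 and 899 CPM with a ratio of 1.01. The mature neutrophil genes had a median ratio of 7.85, with 12.8 for the chemokine receptor gene Cxcr2, 7.23 for Ly6g and 2.22 for the chemokine gene Ccl6. The median was 5.10 for the NADPH oxidase genes, which make the oxidative burst, and 3.29 for the transcription factors of granulocyte formation. It was 0.606 for the signals of neutrophil production and traffic, with 1.23 for Cxcl12, 0.606 for Csf1, 1.40 for Kitl and 1.19 for Vcam1. The ratios below this median were those of genes with only 0 to 19 reads in BS6-2.

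**Figure D2:**
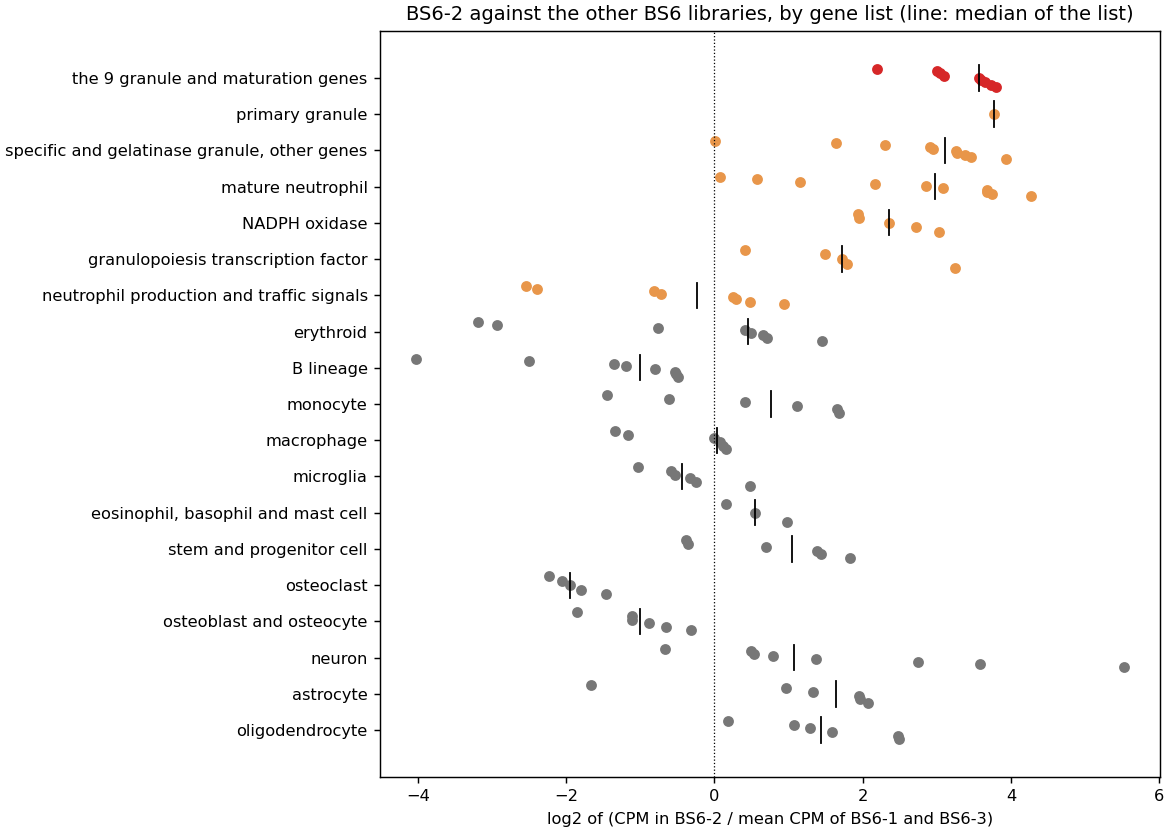
Ratio of the CPM in BS6-2 to the mean CPM of BS6-1 and BS6-3 on a log2 axis, 1 point per gene, with the median of the drawn genes of each list as a line. A gene at 0 in BS6-2 is neither drawn nor counted in the line, so the line of the signals lies above their median of 0.606. The 9 genes have a median ratio of 11.9, osteoclast genes lie to the left with a median of 0.260 and erythroid genes near the centre with 1.37.

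Marker lists of other cells were, as sums, at 0.283 to 2.32 of the mean of BS6-1 and BS6-3 in BS6-2, against 10.3 for the sum of the 9 genes. Since a few abundant genes carry such sums, the median ratio of the genes in each list was also taken. It ran from 0.260 (osteoclast) to 3.19 (astrocyte, whose sum was at 0.565), beside 11.9 for the 9 genes, and it was 2.11 for the stem and progenitor cell list, whose sum was at 1.25. The erythroid markers (8 of 10 in the table) summed to 12760 CPM in BS6-2 and to 8535 and 7762 CPM in BS6-1 and BS6-3. Of these 8 genes 5 were higher in BS6-2 and 3 lower, with ratios of 0.110 to 2.74 and a median of 1.37. B lineage markers (8 of 10) summed to 77.3 CPM in BS6-2 and 116 and 149 CPM in the others. Monocyte markers (6 of 6) summed to 1713 CPM against 4239 and 2063 CPM, a sum carried by Fn1 (972 CPM, ratio 0.368). Of the 6 monocyte genes 4 were higher in BS6-2, with ratios of 1.33 to 3.22, and the median of the 6 was 1.75. Macrophage markers (6 of 6) summed to 518 CPM against 643 and 550 CPM. Osteoclast markers (5 of 6) summed to 600.0 CPM in BS6-2 and to 1855 and 2359 CPM in the others. The osteoblast and osteocyte markers summed to 19097 CPM in BS6-2 against 55572 and 79181 CPM, and the neuron markers to 136 CPM against 70.5 and 74.0 CPM. The 8 neuron genes had a median ratio of 2.15, with 2 over 10-fold and 3 over 5-fold. These 3 genes averaged only 0.227 to 0.808 CPM in BS6-1 and BS6-3, so their ratios rest on few reads. Oligodendrocyte markers (6 of 6) had the highest ratio of sums, 2.32 (300.4 CPM against 135 and 123 CPM), with a median of 2.72, 0 over 10-fold and 2 over 5-fold. The 2 genes over 5-fold averaged 0.0644 and 4.91 CPM in BS6-1 and BS6-3. Of the 9 granule and maturation genes 5 were over 10-fold and 8 over 5-fold. BS6-2 thus had a lower CPM sum on bone cell markers than the other BS6 libraries, and the part of this makeup in the level of the 9 genes was not tested.

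**Figure D3:**
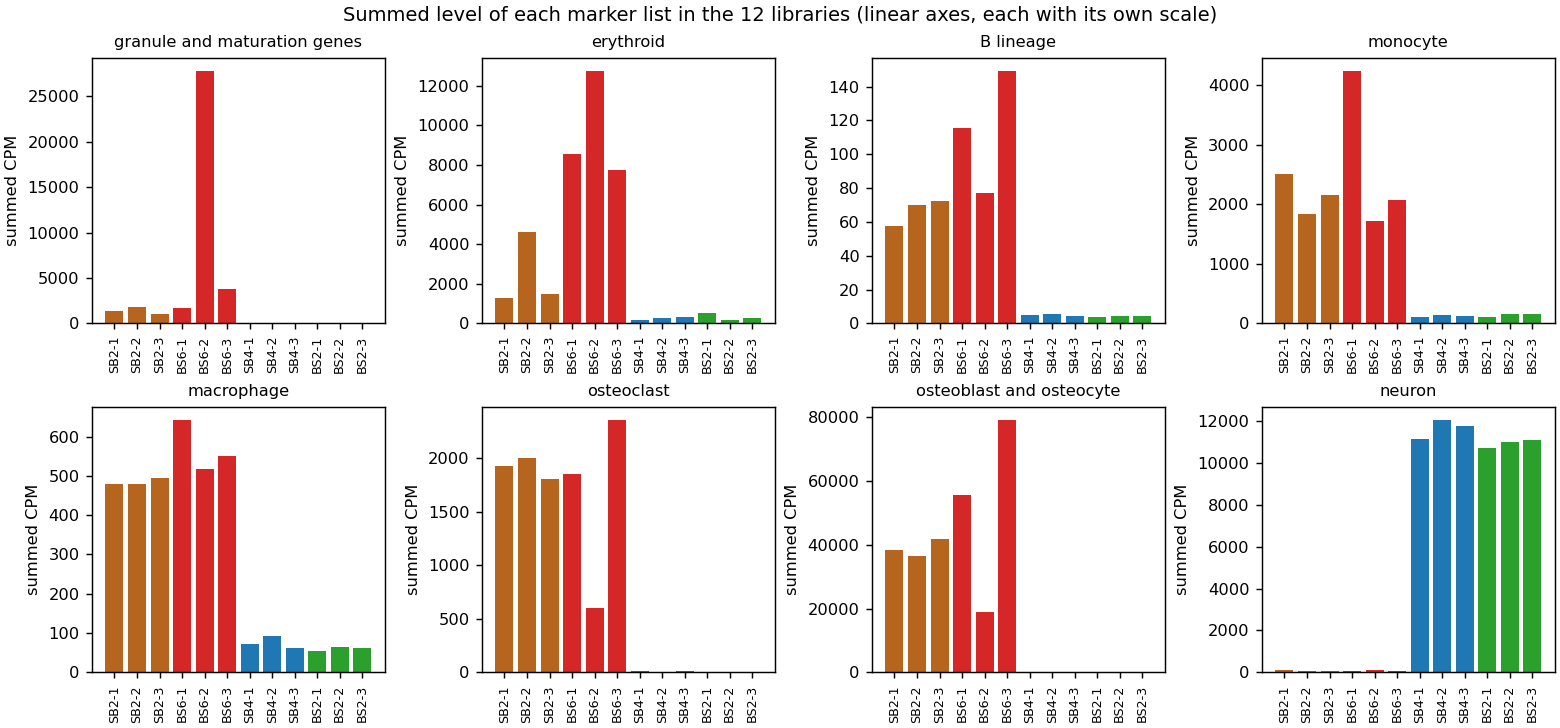
Summed CPM of the 9 granule and maturation genes and of 7 marker lists in each of the 12 libraries, each panel with its own linear axis from 0. BS6-2 has the highest bar for the granule and maturation genes (27829 CPM) and for the erythroid list (12760 CPM), and the lowest of the 6 libraries with bone transcripts for the osteoclast (600.0 CPM) and the osteoblast and osteocyte list (19097 CPM).

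The share of each gene in the sum of the 9 was computed from CPM per kb of exon, since Csf3r (3609 bases of exon) and S100a9 (522 bases) differ in length. In the 6 libraries with bone transcripts S100a9 came first in each, with 42.5% to 48.3%. Ngp had 14.8% to 20.3% and S100a8 14.2% to 19.6%, in places 2 and 3. Camp had 6.66% to 9.41% and was always in place 4. Retnlg had 2.58% to 5.70%, Ltf 2.89% to 4.02%, Lcn2 2.06% to 3.51% and Chil3 1.23% to 1.82%. Csf3r varied most for its level, from 0.362% in BS6-2 to 1.99% in SB2-3.

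The makeup thus kept its order among the first 4 places save for Ngp and S100a8, while the sum over the genes moved from 1063 to 27829 CPM. As a ratio of counts, Csf3r was at 0.271, 0.206 and 0.285 of S100a9 in SB2. In BS6 this ratio was 0.227, 0.0534 and 0.102, so that BS6-2 and BS6-3 lay below all of SB2. Retnlg was at 0.0774, 0.0960 and 0.107 of Ngp in SB2 and at 0.164, 0.153 and 0.0748 in BS6.

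**Figure D4:**
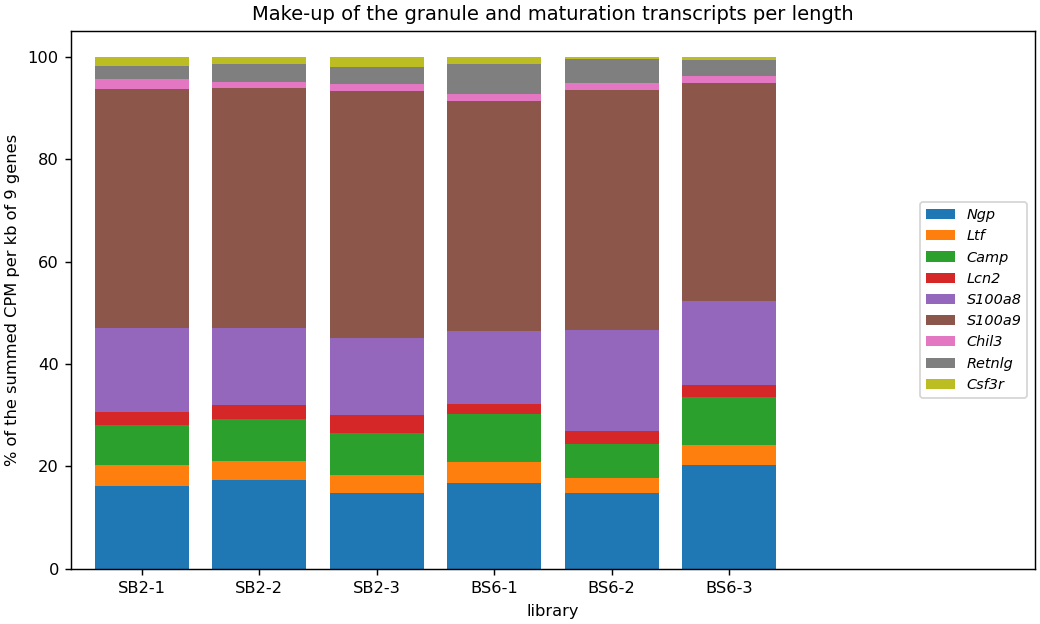
Percent of each gene in the summed CPM per kb of the 9 genes, stacked to 100%, in the 6 libraries with bone transcripts. S100a9 takes 42.5% to 48.3% of every bar, and Csf3r, the top layer, is thinnest in BS6-2 at 0.362%.

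SB4 was compared with SB2 to see how the tissue labelled as brain changed between day 2 and day 4 after skull injury. All 9 genes were lower in SB4. Each was called, that is, it had a Benjamini-Hochberg adjusted p under 0.05 in the quasi-likelihood test of edgeR and changed by more than 1 on the log2 scale. Of all 17293 genes tested 28.6% were called lower in SB4, and SB2 carried bone and SB4 brain transcripts, so the day and the kind of tissue cannot be told apart. The median log2 fold change of the 9 genes was -8.10, beside -0.01 over all genes tested.

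Ngp fell by 9.64 on the log2 scale (SE 0.55, adjusted p = 2.99e-05, edgeR quasi-likelihood test), Ltf by 9.78, S100a8 by 8.10 and S100a9 by 7.49 (SE 0.36, adjusted p = 5.99e-06 from edgeR). Retnlg fell by 5.93 and Lcn2 by 5.20 (SE 0.70, adjusted p = 0.00187 from edgeR), the largest adjusted p of the 9. Csf3r changed least and fell by 3.36 (SE 0.12, adjusted p = 3.00e-10 from edgeR). For Camp, with a single read in SB4, the pooled level in SB2 was 4737-fold that in SB4 (95% interval 850 to 187152), and for Chil3, with 2 reads in SB4, it was 941-fold (260 to 7775).

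The other neutrophil genes were lower in SB4 as well. Called lower were Prtn3 (log2 fold change -6.63), all 10 specific and gelatinase granule genes (median -6.27), all 10 mature neutrophil genes (median -6.08), all 5 NADPH oxidase genes (median -4.80) and all 5 transcription factors (median -4.55). Among the signals 7 of 8 tested were called lower. Kitl, which encodes stem cell factor, was higher in SB4, a direction for which no share of all genes is given.

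BS6 was compared with BS2 to see how the tissue labelled as skull changed between day 2 and day 6 after brain injury. All 9 genes were called higher in BS6, where 29% of the 17311 genes tested were called higher. BS6 carried bone and BS2 brain transcripts, so here too the day and the kind of tissue cannot be told apart. Without BS6-2 all 9 were again called higher, beside 28.8% of all genes. The median log2 fold change was 12.64, or 12.57 where genes near 0 counts take their pooled ratio or limit, beside 0.02 over all genes, and it was 10.40 without BS6-2, or 10.16 by that rule.

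S100a9 was higher by 12.64 on the log2 scale (SE 1.71, adjusted p = 6.55e-04, edgeR quasi-likelihood test), and by 10.40 (SE 0.56, adjusted p = 4.41e-05 from edgeR) without BS6-2. Lcn2 was higher by 11.70 and Retnlg by 11.61, or by 9.43 and 9.24 without BS6-2. S100a8 was higher by 12.57 and Ltf by 13.56, or by 10.16 and 11.79 without BS6-2. Csf3r again had the smallest difference, 5.27 (SE 0.76, adjusted p = 8.62e-04 from edgeR), which became 4.13 (SE 0.12, adjusted p = 4.10e-09 from edgeR) without BS6-2.

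For the genes near 0 in BS2 the pooled counts give the difference. Ngp was 58450-fold higher in BS6 (95% interval 16180 to 482645), and 16166-fold (4475 to 133496) without BS6-2. Camp was 33070-fold higher (5935 to 1306250), and 9672-fold (1735 to 382081) without BS6-2. Chil3, with no read in BS2, was at least 1584-fold higher, against a limit of 3 counts per library, and at least 343-fold without BS6-2. BS6-2 thus moved the size of these differences and none of the calls. The changes from BS2 to BS6 and from SB2 to SB4 had opposite signs, and they differed at an adjusted p under 0.05 for 9 of 9 genes in a contrast over the 12 libraries, beside 84.9% of all genes.

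Called higher in BS6 were also Prtn3 (log2 fold change 9.43, or 7.04 without BS6-2), all 10 specific and gelatinase granule genes, all 10 mature neutrophil genes, all 5 NADPH oxidase genes and all 5 transcription factors, each also without BS6-2. The medians of these 4 lists were 9.60 (8.72 by the same rule for genes near 0), 7.75, 6.17 and 5.61. Without BS6-2 they were 8.04 (7.51 by that rule), 6.79 (6.91 by that rule), 5.20 and 4.79. Of 6 signals tested 5 were called higher. Kitl was called lower, a direction for which no share of all genes is given.

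BS6 and SB2 both held bone transcripts, and by their labels they differ in the injured organ, the day and the tissue together, which cannot be told apart. The 9 genes were all higher on average in BS6, by 1.16 (Csf3r) to 3.65 (Retnlg) on the log2 scale, but edgeR called none in the fit of these 2 groups. The background was 1.11% of 16329 genes called higher. The adjusted p of the 9 genes was 0.105 to 0.266. At an unadjusted p under 0.05 there were 8 of the 9, beside 14.6% of all genes higher at that level. All 9 passed that level without BS6-1 or BS6-3, and none without SB2-1 or SB2-3. Only Retnlg passed it without BS6-2, only Camp and Retnlg without SB2-2, and only Camp, Ngp and Retnlg with replicate number as a block. DESeq2 called 6 of the 8 genes to which it gave an adjusted p, all higher in BS6, beside 4.73% of 15697 genes called higher by DESeq2. In an edgeR fit of all 12 libraries, which share 1 estimate of the spread, 7 of the 9 genes were called higher, with adjusted p of 0.0173 to 0.103 over the 9, beside 5.24% of 18068 genes. Of the 12 marker lists 4 had sums that did not overlap between the groups, whereas the sum of the 9 genes overlapped. Erythroid markers summed to 1299 to 4613 CPM in SB2 and 7762 to 12760 CPM in BS6, B lineage markers to 57.4 to 72.4 and 77.3 to 149 CPM, macrophage markers to 479 to 494 and 518 to 643 CPM, and astrocyte markers to 731 to 852 and 346 to 700.4 CPM. The part of these lists in the differences of the 9 genes was not tested.

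Retnlg differed most, by 3.65 (SE 1.15, adjusted p = 0.105, edgeR quasi-likelihood test). S100a8 followed with 3.39 (SE 1.20), Chil3 with 3.09 (SE 1.11), S100a9 with 3.07 (SE 1.11) and Ngp with 3.02 (SE 1.02). Lcn2 was at 2.97, Camp at 2.89, Ltf at 2.80 and Csf3r at 1.16 (SE 0.63). The median of the 9 was 3.02, beside 0.02 over all genes tested.

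Without BS6-2 these differences shrank. Retnlg was then called (1.28, SE 0.30, adjusted p = 0.0474 from edgeR), beside 2.39% of 16608 genes called higher, and the call rests on 2 BS6 libraries. Ngp was at 1.18 (SE 0.58), Camp at 1.14 (SE 0.46), Ltf at 1.02 (SE 0.47), S100a8 at 0.97 (SE 0.53), Chil3 at 0.86 (SE 0.47), S100a9 at 0.82 (SE 0.42) and Lcn2 at 0.68 (SE 0.49). Csf3r was at 0.02 (SE 0.10). The adjusted p of these 8 genes was 0.184 to 0.920 from edgeR. The median became 0.97, so that for each of the 9 genes the difference on the log2 scale was mostly that of BS6-2.

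**Figure D5:**
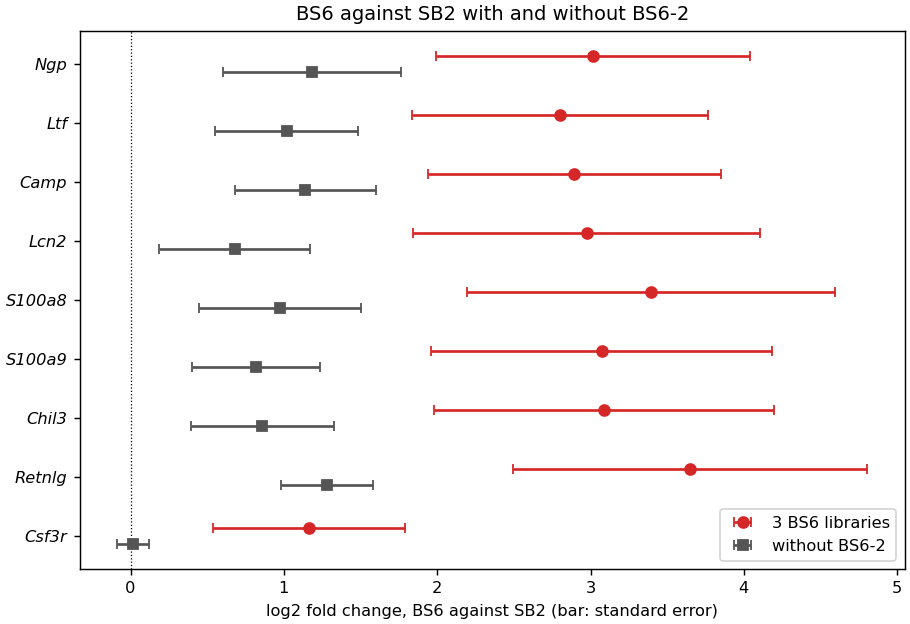
Log2 fold change of each gene in BS6 against SB2 from edgeR with its standard error, from all 3 BS6 libraries (circles) and without BS6-2 (squares). The circles run from 1.16 to 3.65 and the squares from 0.02 to 1.28, with Csf3r lowest in both.

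Of the wider lists, 0 of 10 specific and gelatinase granule genes were called in BS6 against SB2 by edgeR (6 at an unadjusted p under 0.05, and 6 called by DESeq2). Without BS6-2, 3 were called higher, namely Itgb2l, a neutrophil integrin gene (2.10, SE 0.41, adjusted p = 0.0163), Mmp25, a membrane-bound protease gene (1.37, SE 0.25, adjusted p = 0.00827) and Padi4, the gene of a histone-modifying deiminase (1.47, SE 0.29, adjusted p = 0.0139), all from edgeR. None of the 10 mature neutrophil genes was called by edgeR (5 at an unadjusted p under 0.05, of which Il1b was lower in BS6, at -1.42), and the genes that DESeq2 called included Ly6g, which was higher, and Il1b, which was lower. None of the 5 NADPH oxidase genes was called (4 at an unadjusted p under 0.05, 3 called by DESeq2), and without BS6-2 Cybb, which encodes the catalytic subunit, was called higher (1.52, SE 0.10, adjusted p = 0.000385 from edgeR). None of the 5 transcription factors was called (3 at an unadjusted p under 0.05, 0 by DESeq2). Prtn3 was not called (2.48, adjusted p = 0.213 from edgeR), and it was at 0.08 without BS6-2. Of the wider lists 7 genes had a positive log2 fold change with all libraries and a negative one without BS6-2, and edgeR called none of them in either fit. They were Cxcr2 (2.00, then -0.32), Il1r2 (2.58, then -0.26), Trem1 (1.47, then -0.90), Clec4d (0.19, then -0.04), Anxa1 (1.20, then -0.03), Cebpb (0.24, then -0.45) and Cebpd (0.63, then -0.21). The median of the mature neutrophil genes went from 1.99 to -0.15. The genes named for these calls or signs outside the 4 most abundant of their list were chosen after their values were seen.

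Of 8 signals tested 1 was called higher in BS6, beside 1.11% of all genes tested. Another 1 was called lower, a direction for which no share of all genes is given. The median log2 fold change of the 8 signals was -0.70. The 4 most abundant signals had negative log2 fold changes and were not called. They were Cxcl12 (-0.65, SE 0.19, adjusted p = 0.0931 from edgeR), Csf1 (-0.74, SE 0.20, adjusted p = 0.0801 from edgeR), Vcam1 (-0.14) and Kitl (-0.07). Without BS6-2, Cxcl12 was at -0.77 (adjusted p = 0.0188 from edgeR) and Csf1 at -0.54 (adjusted p = 0.00618 from edgeR), both under the fold change threshold. Cxcr4, the receptor that holds neutrophils in the marrow, was called higher in BS6 (1.69, SE 0.36, adjusted p = 0.0495 from edgeR) and again without BS6-2 (1.29, adjusted p = 0.0191). Il6, which encodes a cytokine that supports neutrophil production, was called lower in BS6 (-4.24, SE 0.80, adjusted p = 0.0407 from edgeR), a call that was lost without BS6-2 (-4.02, adjusted p = 0.0976). Il6 was at 23.2, 3.20 and 10.1 CPM in SB2 and at 0.782, 0.423 and 0.700 CPM in BS6. Csf3, the G-CSF gene and ligand of the Csf3r product, was counted 45, 5 and 6 times in SB2 and 3, 0 and 0 times in BS6 and was too low to be tested. SB2-1 had the most reads of Il6 and of Csf3. Neither Cxcr4 nor Il6 was called when any other single library of SB2 or BS6 was left out, or with replicate number as a block. Cxcr4, Il6 and Csf3 were chosen after their values were seen.

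Between BS2 and SB4, the groups with brain transcripts, only S100a9 and Csf3r had enough counts for the test. S100a9 was at 0.503 ± 0.137 CPM (SD, n = 3) in BS2 and 2.11 ± 0.867 CPM in SB4. It was called lower in BS2 (log2 fold change -2.04, SE 0.40, adjusted p = 0.0117 from edgeR), beside 0.086% of 16278 genes called lower. The call was lost without BS2-2 (adjusted p = 0.0656 from edgeR), BS2-3 (0.0539) or SB4-2 (0.0684), with a log2 fold change of -1.74 to -2.26 in these fits. It was also lost in the fit of all 12 libraries (-2.04, SE 1.34, adjusted p = 1 from edgeR). Csf3r was at 5.53 ± 0.687 CPM in BS2 and 9.14 ± 1.31 CPM in SB4 (log2 fold change -0.70, SE 0.16, adjusted p = 0.0395 from edgeR), under the fold change threshold. The adjusted p of Csf3r from edgeR was 0.0611 to 0.168 when any of the 3 BS2 libraries, SB4-1 or SB4-2 was left out, 0.0129 without SB4-3 and 1 in the fit of all 12 libraries.

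Retnlg, too low to be tested, also had all BS2 libraries below all SB4 libraries, as did S100a9 and Csf3r. So did 10% of the 16278 genes tested, a set that leaves Retnlg out. For Ngp 19 reads in SB4 stood against 2 in BS2, a ratio of 8.73 (95% interval 2.11 to 77.3). Lcn2 was at 3.02 ± 2.97 CPM in SB4 and 0.279 ± 0.291 CPM in BS2, and was called lower in BS2 only where SB4-3 was left out. Macrophage markers summed to 63.0 to 92.9 CPM in SB4 and 55.1 to 64.4 CPM in BS2, monocyte markers to 110 to 146 and 109 to 151 CPM, and microglia markers to 145 to 148 and 150.3 to 166 CPM. Osteoclast markers (8.32 to 9.86 CPM in SB4, 6.25 to 7.63 CPM in BS2) summed lower in every BS2 library. So did neuron markers (11119.4 to 12044.9 CPM in SB4, 10697.4 to 11075.5 CPM in BS2). The part of these lists in the levels of S100a9 and Csf3r was not tested.

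The genes with the most similar pattern were sought over the 6 libraries with bone transcripts, among 10576 genes whose mean reached 10 CPM, by the root mean square difference of centred log2(CPM + 1) values from the mean pattern of the 9 genes. The 8 nearest were Cebpe (0.157), Pglyrp1, Fpr2, Mcemp1, Mmp8, Ncf1, Ly6g and Olfm4 (0.236). The 9 genes themselves, which made the pattern, lay at 0.108 (S100a9) to 0.792 (Csf3r). Csf3r, Retnlg (0.401) and S100a8 (0.246) followed the pattern less closely than these 8 genes, and Lcn2 (0.236) about as closely as Olfm4. Cebpe, the factor of specific granule formation, was at 6.44, 7.73 and 4.09 CPM in SB2 and at 5.67, 108 and 17.2 CPM in BS6, and had at most 0.111 CPM in a library with brain transcripts. Pglyrp1, a peptidoglycan recognition protein of specific granules, was at 21.0, 31.0 and 14.5 CPM in SB2 and at 24.6, 474 and 46.5 CPM in BS6. Without BS6-2 only Pglyrp1 and Ncf1 stayed among the 8 nearest. Cebpe reached the mean of 10 CPM only through BS6-2 and so had no rank without it, and the other 5 genes were at ranks 12 to 70.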

How the data were processed

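The authors cleaned the paired reads with fastp, mapped them to mm10 with HISAT2 2.1.0 (processing notes) and deposited a table of raw counts, in whole numbers and not normalized, with 1 row per symbol. The counting program, annotation, use of strand, and whether the counts precede the study's ComBat_seq correction are not given in the sources used here, so genes with close paralogs or overlaps are uncertain. Groups come from the labels, and the table held 0 columns of other samples. The study's methods call the 3 libraries of a group biological replicates.

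The 9 genes were read from the deposited counts. Genes were tested in fits of 2 groups with the robust quasi-likelihood test of edgeR 4.0.16 (R 4.3.3), after filterByExpr at a minimum of 10 counts and TMM scaling, with Benjamini-Hochberg adjustment over all genes tested. A call needs an adjusted p under 0.05 and a change of more than 1 on the log2 scale. The SE is the size of that change over the root of F. The difference of both changes over time was a contrast over all 12 libraries. CPM uses TMM factors over the 12 libraries, and exon lengths are those of GENCODE M21. The code was tested on simulated data. Total counts were 14126082 to 18972654 per library. A fold against a group at 0 was computed against 3 counts per library, and ratios of pooled counts have exact binomial 95% intervals.

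The genes, wider lists, markers, comparisons and alternatives were chosen with earlier results of these data known. Named besides the 9 genes are at most the 4 most abundant genes of each wider list, up to 2 genes of a marker list and the 8 genes of most similar pattern; others are said to be chosen after their values were seen. Alternatives were DESeq2 1.42.0, other scaling, other filters, all 12 libraries in 1 fit, a replicate block, no fold change threshold, and each library left out. Leaving BS6-2 out for the wider lists was added after seeing the data. Of the wider and marker lists 20 genes, Mpo, Elane and Gfi1 among them, were not analysed here, and 1 gene of these lists is not reported by name.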

Additional observations from a re-analysis of the deposited data

Results flagged for a closer look

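The change from day 2 to day 6 in the groups labelled BS and the change from day 2 to day 4 in the groups labelled SB were opposite in sign for all 9 genes, and their difference was tested as a contrast over the 12 libraries. It had an adjusted p under 0.05 for 9 of 9 genes, from 2.97e-07 for Ltf to 3.03e-05 for Chil3 (quasi-likelihood test of edgeR, Benjamini-Hochberg adjusted), beside 84.9% of all genes tested. The difference on the log2 scale was 8.633 for Csf3r, 16.94 for Lcn2, 17.56 for Retnlg, 20.14 for S100a9, 20.67 for S100a8, 23.35 for Ltf, 24.96 for Chil3, 25.23 for Ngp and 26.32 for Camp. For Ngp, Camp and Chil3, with 0 to 3 reads in a whole group, the fitted size depends on the prior count and is no bound. Without BS6-2 the differences ran from 7.50 (Csf3r) to 24.57 (Camp). SB2 and BS6 carried bone transcripts and SB4 and BS2 brain transcripts, so this difference cannot be told apart from that of the tissues. Single libraries far from the rest of their group were not sought by a test, since groups of 3 are too small for it. Between libraries of the same group, the chi-square per gene was 197.5 for BS6-1 and BS6-2 and 212.8 for BS6-2 and BS6-3. It was 34.5 for BS6-1 and BS6-3, and 4.17 to 16.9 in the other groups.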

How the results depend on the processing

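For the 9 genes, 9 of 9 were called in SB4 against SB2, in BS6 against BS2 and in the difference of changes. With at least 10 counts required in every library, which leaves few of them to test, 2, 1 and 1 were called, and 0 in BS2 against SB4. In BS6 against SB2, where 0 were called, DESeq2 called 6, a fit of all 12 libraries 7 and leaving out each library in turn 0 to 1; the cause was not tested. In BS2 against SB4, where 1 was called, the fit of all 12 libraries called 0, an adjusted p with no fold change threshold 2, and leaving out each library 0 to 2. At an unadjusted p under 0.05 BS6 against SB2 gave 8 genes, 9 without BS6-1 or BS6-3, 1 without BS6-2, 0 without SB2-1 or SB2-3, 2 without SB2-2 and 3 with the replicate block. Of all genes 14.6% were higher at that level with all libraries of both groups. No such share is given for the other fits. For the 9 genes no direction was reversed under an alternative that was run, whereas 7 genes of the wider lists changed sign in BS6 against SB2 without BS6-2, and the alternatives not named here kept the counts of the 9 genes within 1.5-fold. Over all genes, BS6 against SB2 gave 303 calls, 1058 with DESeq2, 1273 with all libraries in 1 fit, 932 with no fold change threshold and 0 to 667 without single libraries, and BS2 against SB4 gave 24, then 49, 8, 153 and 18 to 85, and 50 with no filter.

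Replicate numbers do not pair the samples: deviations of same-numbered samples correlated at -0.138 to 0.102. With the replicate block, 9, 9, 0 and 1 of the 9 genes were called in SB4 against SB2, BS6 against BS2, BS6 against SB2 and BS2 against SB4, as without it. The log2 fold changes in BS6 against SB2 became 0.74 (Csf3r) to 2.52 (Retnlg) with the block, from 1.16 to 3.65, and the calls over all genes became 0 in BS6 against SB2 and 61 in BS2 against SB4. Depth limits Ngp, Ltf, Camp, Chil3 and Retnlg in the libraries with brain transcripts, where at most 13 reads were counted per library, and Camp and Chil3 there at 0 or 1 read.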
